A study of Homo sapiens with 43 samples.

Results

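Serpins are a family of proteins that share a common fold. Most of them trap a protease that attacks their exposed loop and inactivate it for good, and some have lost that activity. Plasminogen activation is one of the reactions they control. The tissue-type activator PLAT and the urokinase PLAU cut plasminogen to plasmin, a protease that dissolves fibrin and cleaves matrix proteins. PLAUR holds urokinase at the cell surface, and serpins such as SERPINE2 and SERPINB2 block the activators. In tumour cells these genes are studied for their part in invasion, in clot removal and in survival in a foreign tissue.

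The genes described have symbols that begin with SERPIN, together with PLAT, PLAU and PLAUR, and a mean of at least 10 normalized counts over all libraries of a cell line. In H2087, 20 of the 36 symbols considered reached that level, among 12535 of 18085 genes. In HCC1954, 22 of 39 reached it, among 15397 of 25369 genes. The 23 genes include 19 that reached it in both lines, SERPIND1 in H2087 alone, and SERPINB2, SERPINB9 and SERPINB13 in HCC1954 alone. The lowest member of H2087 was SERPINB3 at a mean of 10.2, and the highest symbol left out was SERPINB9 at 8.3. The lowest member of HCC1954 was SERPINF2 at 12.8, and the highest symbol left out was SERPINE3 at 6.4. In 4 H2087 members (SERPINB3, SERPINB4, SERPINF1 and SERPING1) and 2 HCC1954 members (SERPINF2 and SERPINI1) at least 1 group had a mean under 10, so these passed through their higher groups.

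RNA was sequenced from derivatives called latency-competent cancer cells (LCC) and from the parental cells of 2 established cell lines, H2087 from a lung adenocarcinoma and HCC1954 from a breast adenocarcinoma. The labels say that the derivatives came from BLI-negative organs, of mice in the case of HCC1954, and name no gene change or drug in any group. Cells grew below confluence for 48 h in mitogen-low medium (MLM) or mitogen-rich medium (MRM). Each medium has 6 LCC libraries of H2087, 1 from each of the derivatives LCC1 to LCC6, and 2 parental libraries. Each medium of HCC1954 has 4 LCC libraries, 2 from LCC1 and 2 from LCC2, and 3 parental libraries. Libraries of 1 derivative share their cells, and nothing says that replicates were separate cultures, so p-values measure the spread between these libraries. The third H2087 parental library in MLM and the 12 chromatin samples that the labels list were not analysed here.

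Libraries held 44.6 to 54.0 M reads in H2087 LCC and 50.5 to 55.7 M in parental cells in MLM, and 16.2 to 20.8 and 12.1 to 18.1 M in MRM. HCC1954 LCC and parental libraries held 24.9 to 28.1 and 24.9 to 26.7 M reads in MLM, and 28.8 to 39.9 and 32.1 to 44.7 M in MRM, so medium and depth moved together in both lines, and the part of depth in the media comparisons was not tested. The lung factor NKX2-1 averaged 3096 to 5344 normalized counts over the groups of H2087, where the surfactant gene SFTPC was at 0 in both parental libraries in MRM, and ERBB2 averaged 149100 to 266000 over those of HCC1954. In H2087 the LCC5 and LCC6 libraries in MRM were closer to each other than any other pair of LCC libraries there, at 6.93 chi-square units per degree of freedom beside 25.96 to 111.1. A pair of HCC1954 libraries stood apart from their groups. Parental library 3 in MLM differed more than 2-fold from the other 2 in 7.92% of genes, against 3.28% and 3.14% for those. LCC1 library 2 in MRM differed more than 2-fold from LCC1 library 1 in 11.58% of genes, a value that does not tell which of them is apart. From the LCC2 libraries in MRM, library 2 differed in 17.56% and 17.3% of genes and library 1 in 12.2% and 11.86%. Among the 22 members, 9 differed more than 2-fold in that parental library, 10 between the LCC1 libraries in MRM, and 0 between the LCC1 libraries in MLM.

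Markers of cell types also differed, and their part in the results below was not tested. In HCC1954 the epithelial list summed to 184600 to 193900 normalized counts in LCC libraries and 356700 to 399700 in parental ones in MLM, and to 137500 to 226600 and 330200 to 353500 in MRM. In both media 5 of its 6 genes were lower in LCC, and KRT19 was higher. In H2087 the list summed to 148000 to 347100 in LCC and 138200 to 145500 in parental libraries in MLM, and to 160700 to 457900 and 117600 to 130100 in MRM. There 0 of the 6 genes were called in MLM, and in MRM KRT7 and KRT19 were called higher and 0 lower. The HCC1954 fibroblast list of 9 genes was led by COL1A1. It summed to 944 to 1305 in LCC libraries and 801.6 to 1037 in parental ones in MLM. In MRM the sums were 1078 to 1727 and 787.9 to 846.8, and THY1 was at 0 in all libraries of both groups. The HCC1954 liver list of 6 genes, led by the fibrinogen chain FGB, summed to 33.6 to 59.34 in LCC libraries and 1025 to 1115 in parental ones in MRM, and TTR was at 0 in both groups.

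In HCC1954 the derivatives held less PLAT than the parental cells (log2 fold changes of -3.55 in MLM and -5.89 in MRM) and more SERPINA5, the protein C inhibitor (3.47 and 2.25). In H2087 they held more PLAT (0.74 and 1.81). The collagen chaperone SERPINH1 was higher in HCC1954 LCC in both media, while the intracellular serpins SERPINB1 and SERPINB6 were lower there. These libraries are of bulk cultures, in which fewer cells that express a gene and less RNA per cell cannot be told apart. Calls are from limma on log2 of the normalized count plus 1, with p-values adjusted by Benjamini-Hochberg over all genes of a line and a threshold of 0.05. All fold changes are differences on that scale with their standard error, LCC minus parental or MLM minus MRM.

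Of the 20 members in H2087, 3 were called higher in LCC than in parental cells in MLM and 0 lower, where 13.5% of all genes were called, 4.9% higher and 8.56% lower. In MRM 2 were called higher and 0 lower, where 14.4% of all genes were called, 8.7% higher and 5.71% lower. These shares rest on the 2 parental libraries: without parental library 1 or 2, 151 and 120 of the 12535 genes were called in MLM in place of 1687, and 140 and 201 in MRM in place of 1807. Among the 22 members in HCC1954, 3 were higher and 3 lower in LCC in MLM, a share of 27.3% where 35.9% of all genes were called, 17.4% higher and 18.5% lower. In MRM 5 were higher and 7 lower, a share of 54.5% where 38.7% of all genes were called, 19.4% higher and 19.3% lower. Without any 1 of the 3 parental libraries 6 of these 12 remained called in MRM, and the calls of SERPINA5, SERPINB2, SERPINB3, SERPINB4, SERPINB6 and SERPINI1 were lost. The median log2 fold change of the members was 0.36 and 0.07 in H2087 in MLM and MRM, beside 0.01 and -0.00156 for all genes, and -0.24 and -0.33 in HCC1954, beside 0.000318 and -0.00305. Their median size regardless of sign was 0.74 and 1.29 in HCC1954 in MLM and MRM, beside 0.41 and 0.41 for all genes, and 0.42 and 0.42 in H2087, beside 0.21 and 0.26. LCC and parental libraries did not overlap in 63.6% of the HCC1954 members in MRM and in 51.8% of all genes there, and in 27.3% and 46.5% in MLM. In H2087 they did not overlap in 20.0% of members in either medium, beside 36.1% of all genes in MLM and 37.8% in MRM.

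**Figure D1:**
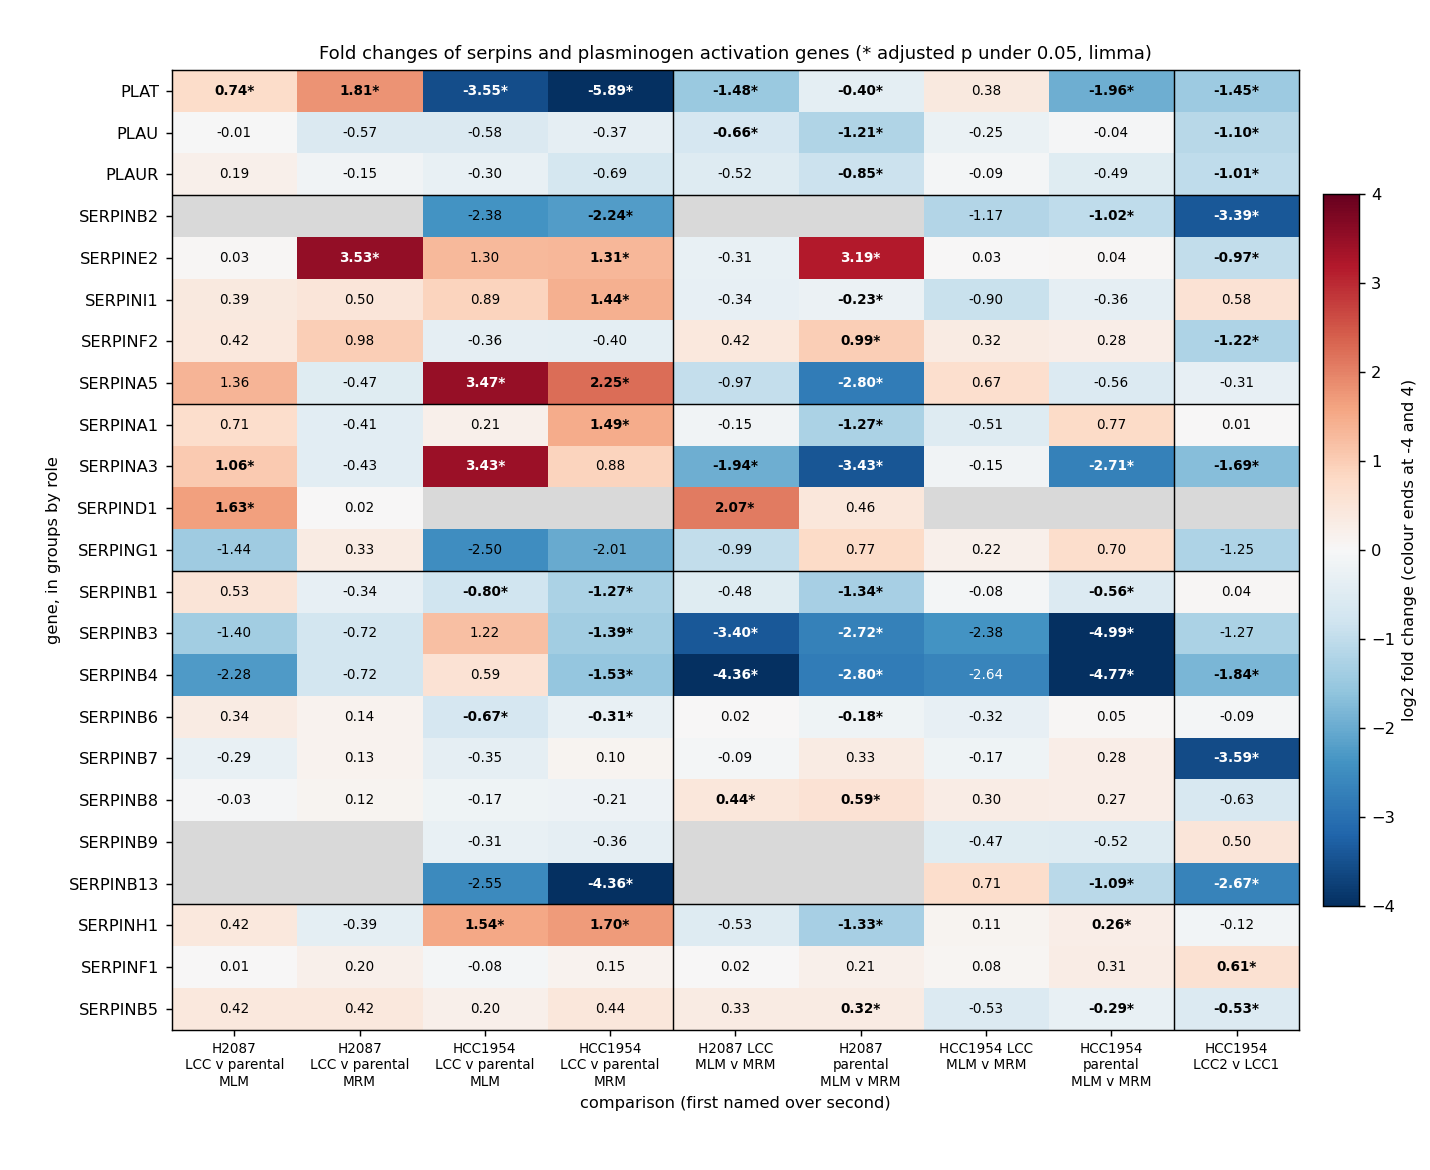
Log2 fold changes of the 23 genes (rows, grouped from the top as activators and receptor, inhibitors of activators or plasmin, other secreted inhibitors, intracellular serpins, and serpins with no known inhibition of proteases) in 9 comparisons (columns), with an asterisk where the adjusted p was under 0.05 and grey where the gene was not a member in that line. PLAT runs from 1.81 in H2087 LCC in MRM to -5.89 in HCC1954 LCC in MRM, and the column of HCC1954 LCC2 against LCC1 holds 11 called genes below 0 and 1 above.

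PLAT, the tissue-type plasminogen activator, is a secreted protease with its highest activity on fibrin. It held 16399.9, 19218 and 23431 normalized counts in the 6 H2087 LCC libraries in MLM (lowest, median and highest), against 11172 and 11848 in the parental libraries. In MRM it held 40680.4, 53815 and 62046 normalized counts in LCC, against 15225 and 15182 in parental cells. Every LCC library lay above both parental libraries in both media. The log2 fold change was 0.74 ± 0.13 (SE, limma adjusted p = 0.0109) in MLM and 1.81 ± 0.16 (limma adjusted p = 0.000851) in MRM. Without either parental library the call in MLM was lost, with log2 fold changes from 0.68 to 0.78 over all single libraries left out. The LCC effect on PLAT was smaller in MLM than in MRM by 1.07 ± 0.21 on the log2 scale (limma adjusted p = 0.00575), in a test where PLAT was the 1 member called and 10.7% of all genes were, 4.08% higher and 6.64% lower. Blocking on the derivative and on the parental number, which MLM and MRM libraries share by name, raised that count of members to 7. PLAU, SERPINA1, SERPINA5, SERPINB1 and SERPINH1 were above 0 and SERPINE2 and PLAT below. Parental libraries of the same number did not deviate together between media.

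HCC1954 showed the opposite direction. PLAT held 559 and 468 normalized counts in the LCC1 libraries and 201 and 195 in the LCC2 libraries in MLM, against 2669, 3453 and 5626 in parental cells. The MRM values were 561 and 309 in LCC1 and 137 and 148 in LCC2, against 14228, 15306 and 13948 in parental cells. All LCC libraries lay below all parental ones, and the higher parental value in MLM was that of library 3, which stands apart. The log2 fold change was -3.55 ± 0.45 (limma adjusted p = 0.00118) in MLM and -5.89 ± 0.47 (limma adjusted p = 0.000165) in MRM, and it stayed called with any single library left out. The tables of the lines were normalized separately, and the difference between lines was not tested. Between media the LCC effect in HCC1954 differed by 2.34 ± 0.70 (limma adjusted p = 0.24).

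PLAT lies on chromosome 8 in a run of genes that differed between the H2087 media. The gene order was taken from a GRCh38.p14 gene table, and the 10 tested genes on each side were compared. In H2087 LCC in MLM, 15 of these 20 neighbours were called lower and 0 higher, with a median log2 fold change of -0.86, while PLAT was higher. AP3M2, the gene on one side of PLAT, had -1.38 ± 0.08 and IKBKB on the other side -0.54 ± 0.09. In MRM the neighbours had a median of 0.23, with 3 higher and 1 lower. The run also separated the parental media: 17 of 20 neighbours were higher in MLM and 2 lower, with a median of 1.03, while PLAT itself was lower in MLM at -0.40 ± 0.04. The neighbours' LCC effect was lower in MLM than in MRM in 18 of 20, a difference called in 14, with a median of -1.20 beside -1.07 for PLAT, and the part of that shared shift in the PLAT difference was not tested. In HCC1954 the neighbours' medians were 0.09 in MLM and 0.08 in MRM, beside -3.55 and -5.89 for PLAT. Of the 20 neighbours 4 were called higher and 2 lower in MLM, with values from -1.92 to 3.52. In MRM 4 were higher and 4 lower, from -4.39 to 4.14. IKBKB and POLB, next to PLAT on one side, were lower in MRM at -0.65 ± 0.11 and -1.16 ± 0.12. AP3M2 on the other side was not called, at -0.11 ± 0.17.

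**Figure D2:**
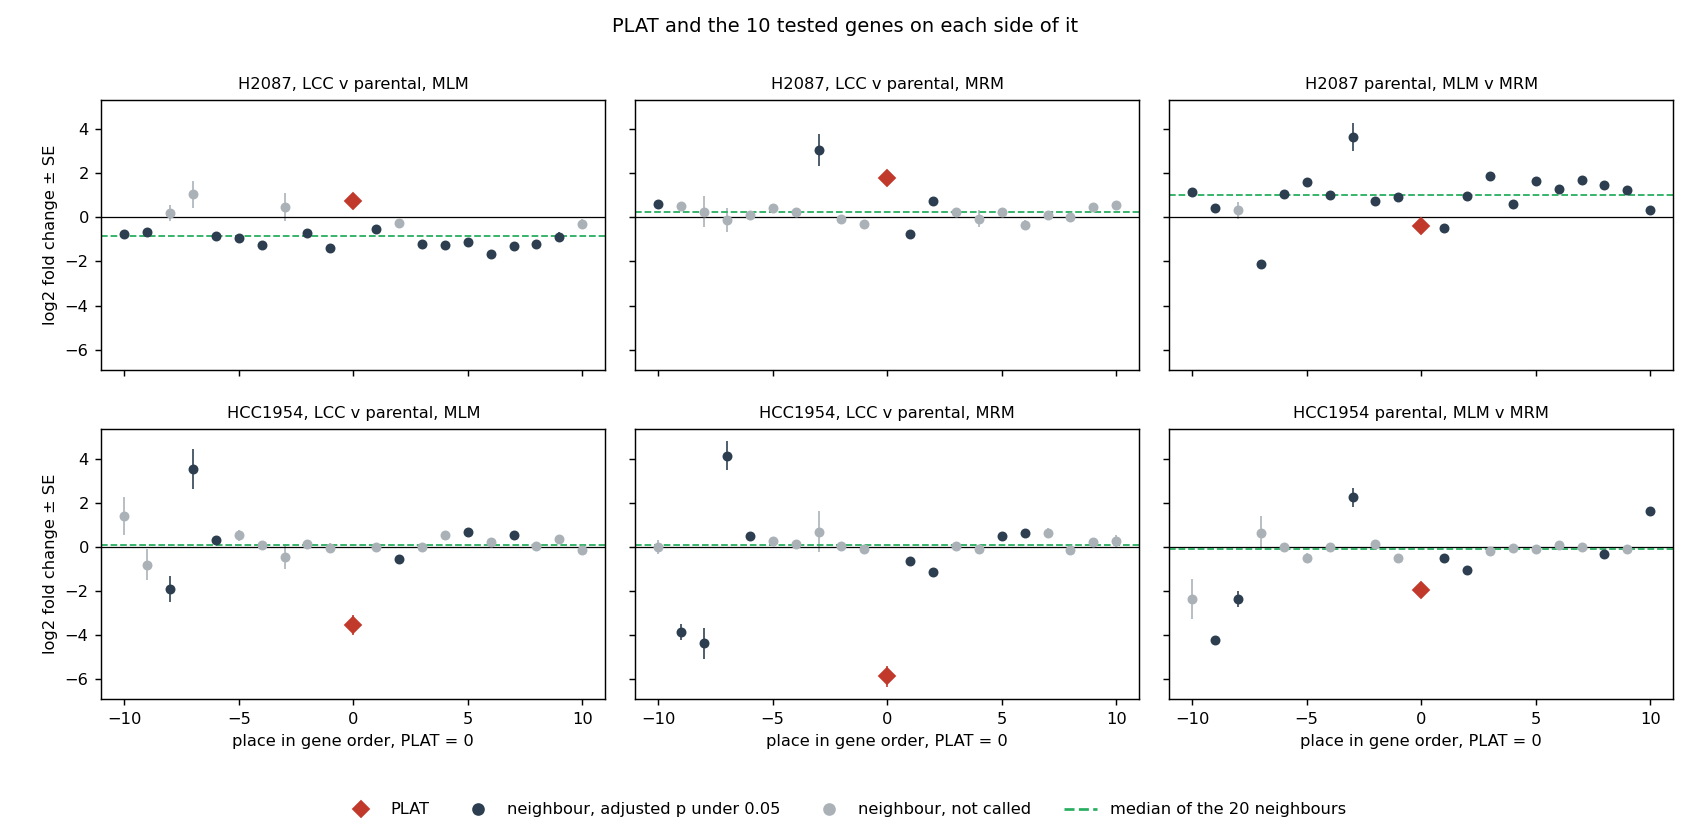
Log2 fold change with its standard error (vertical) of PLAT (red diamond) and of the 10 tested genes on each side of it in gene order (horizontal), in 6 comparisons, with dark points called and grey points not called. In H2087 in MLM 15 of 20 neighbours lie below 0 and called while PLAT is above 0, and in HCC1954 the dashed median of the neighbours lies near 0 while PLAT is at -3.55 and -5.89.

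PLAU, the urokinase, was not called between LCC and parental cells in any of the 4 comparisons. It held 27645, 34089 and 39299 normalized counts in H2087 LCC in MLM, against 32991 and 34025 in parental cells. Its MRM values were 42980.5, 50260.2 and 69679.8 in LCC, against 81924 and 73628 in parental cells, so that no library overlapped there. The log2 fold change in MRM was -0.57 ± 0.19 (limma adjusted p = 0.0826). PLAU was called lower with equal library totals and without LCC6, and was not called without LCC5 alone. It was also called lower without LCC5 and LCC6 together, a setting chosen after seeing the data. In HCC1954 in MLM, PLAU held 2360.4 and 2241 normalized counts in LCC1 and 926 and 824 in LCC2, against 2269, 2194 and 1896 in parental cells. In mitogen-rich medium there were 2298 and 2167 in LCC1 and 1300.3 and 1249.9 in LCC2, against 2188, 2094 and 2261 in parental cells. The LCC1 libraries lay among or near the parental ones and the LCC2 libraries below them.

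The receptor PLAUR held 1287, 1758 and 2638 normalized counts in H2087 LCC in MLM, against 1534 and 1597 in parental cells, and 1662, 2388 and 3731 in MRM, against 2764 and 2883. The groups overlapped in both media, with log2 fold changes of 0.19 ± 0.24 and -0.15 ± 0.29. In HCC1954 in MLM it held 2868 and 3189 in LCC1 and 1389 and 1255 in LCC2, against 2283, 1827 and 3536 in parental cells. MRM libraries had 1827 and 4359 in LCC1 and 1632 and 1555 in LCC2, against 3495, 3432 and 3374 in parental cells. LCC1 library 2 alone lay above the parental libraries there. Without it PLAUR was called lower in LCC, and with it the log2 fold change was -0.69 ± 0.35 (limma adjusted p = 0.152).

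**Figure D3:**
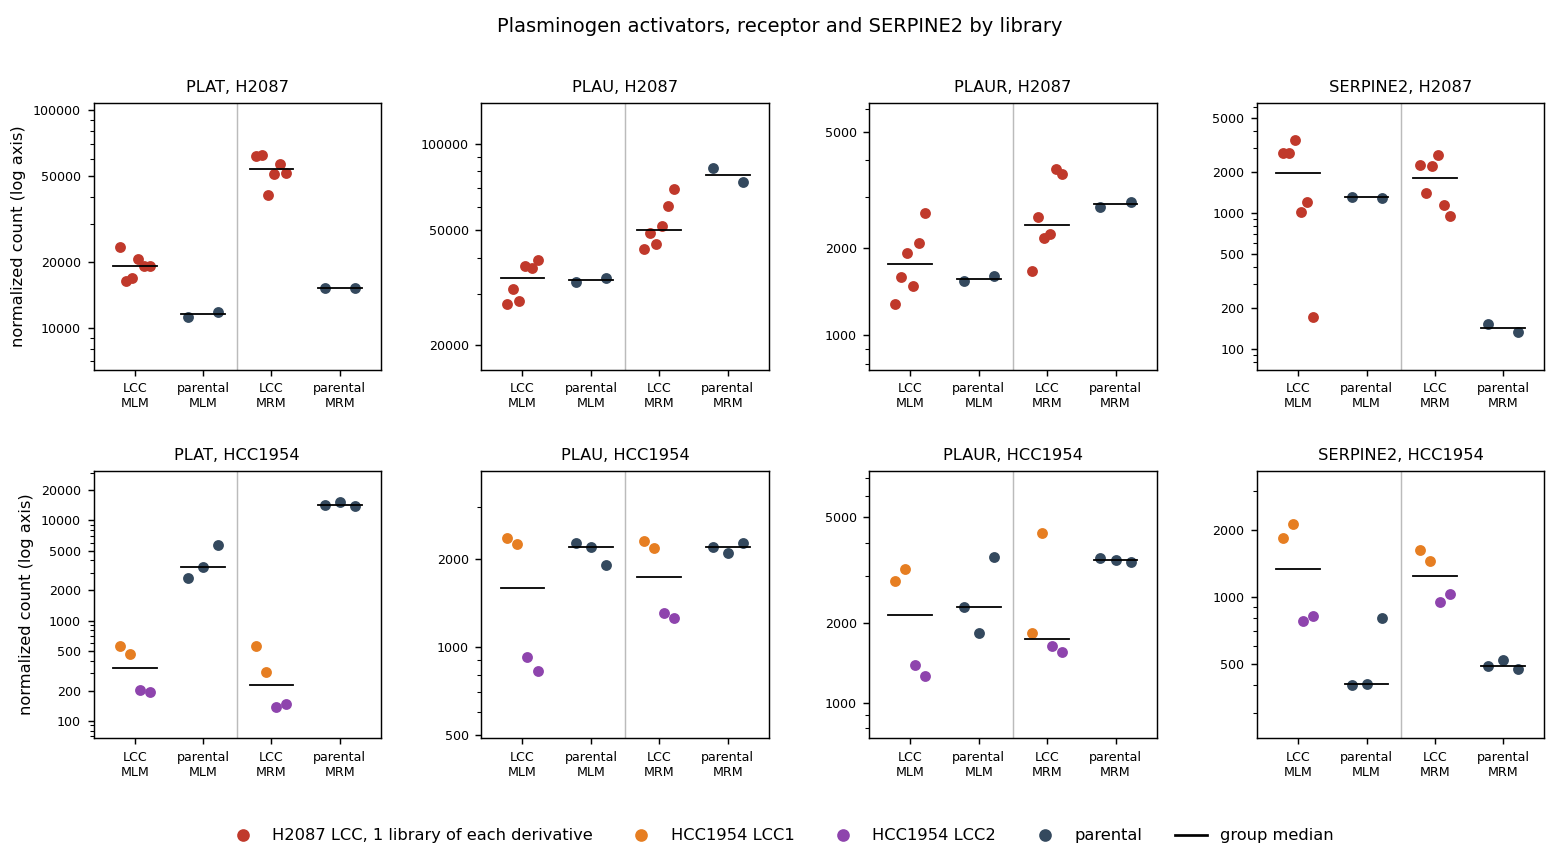
Normalized counts (vertical, log axis) of PLAT, PLAU, PLAUR and SERPINE2 in every library of H2087 (top) and HCC1954 (bottom), by cell type and medium, with a line at each group's median. In HCC1954 the LCC libraries of PLAT lie at 561 and below and the parental ones at 2669 and above, and within each medium the LCC2 libraries lie below the LCC1 libraries for all 4 genes.

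SERPINE2, protease nexin 1, inhibits thrombin, urokinase and tissue-type activator at the cell surface. It held 947, 1791 and 2663 normalized counts in H2087 LCC in MRM, against 152 and 132 in parental cells, and 173, 1968 and 3408 in MLM, against 1312 and 1284. The groups did not overlap in MRM and overlapped in MLM, where 3 LCC libraries lay above the parental ones and LCC4, LCC5 and LCC6 below them, at 1018, 1194 and 173. Log2 fold changes were 3.53 ± 0.38 (limma adjusted p = 0.00165) in MRM and 0.03 ± 1.02 (limma adjusted p = 0.989) in MLM. The difference between media was -3.49 ± 1.16 (limma adjusted p = 0.0668). With derivatives and parental numbers blocked it was -3.49 ± 0.77 (limma adjusted p = 0.00851). In HCC1954 it held 1617 and 1452 in LCC1 and 950.4 and 1025 in LCC2 in MRM, against 489, 519.8 and 474 in parental cells, a log2 fold change of 1.31 ± 0.20 (limma adjusted p = 0.00215). In MLM it held 1839.7 and 2118 in LCC1 and 779.6 and 818 in LCC2, against 403, 405 and 807 in parental cells. Parental library 3 lay between the LCC2 libraries there, the log2 fold change was 1.30 ± 0.44 (limma adjusted p = 0.0529), and SERPINE2 was called without that library or either LCC2 library, with equal library totals and by edgeR.

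The other inhibitors of the activators or of plasmin split. SERPINA5, the protein C inhibitor, which also blocks urokinase, held 779.8 and 742 normalized counts in HCC1954 LCC1 and 570.4 and 555 in LCC2 in MLM, against 102, 102 and 18.3 in parental cells. Its MRM values were 1299.7 and 149 in LCC1 and 412 and 360.3 in LCC2, against 82.3, 97.6 and 79.3. No LCC library overlapped the parental ones, and the log2 fold change was 3.47 ± 0.58 (limma adjusted p = 0.00355) in MLM and 2.25 ± 0.63 (limma adjusted p = 0.0263) in MRM. SERPINB2, plasminogen activator inhibitor 2, is intracellular for the most part. It held 181 and 686 normalized counts in LCC1 and 74.2 and 68.3 in LCC2 in MRM, against 723, 717 and 819.6 in parental cells, with a log2 fold change of -2.24 ± 0.75 (limma adjusted p = 0.0496). That call sat at the threshold and was lost without any 1 of 6 of the 7 libraries. SERPINF2, the plasmin inhibitor alpha-2-antiplasmin, and the neuronal serpin SERPINI1, an inhibitor of PLAT, averaged 5.92 to 22.9 normalized counts over the HCC1954 groups, and SERPINI1 alone was called, at 1.44 ± 0.48 in MRM, a call lost without any 1 library. In H2087 none of SERPINA5, SERPINF2 and SERPINI1 was called between LCC and parental cells.

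Of the secreted serpins that act on other proteases, SERPINA3, the antichymotrypsin that binds cathepsin G and chymase, was called in both lines in MLM and in neither in MRM. In HCC1954 in MLM it held 2611 and 2471 normalized counts in LCC1 and 423 and 423 in LCC2, against 84.2, 90.0 and 113 in parental cells. No library overlapped, and the log2 fold change was 3.43 ± 0.73 (limma adjusted p = 0.00985). In MRM the HCC1954 libraries overlapped, with 581 to 3961 in LCC and 569 to 701 in parental cells. SERPINA1, the inhibitor of neutrophil elastase, averaged 61.1 ± 10.4 normalized counts (SD, n = 4) in HCC1954 LCC in MRM and 21.1 ± 3.7 in parental cells (SD, n = 3), and was called at 1.49 ± 0.22. It was not called in HCC1954 in MLM, at 0.21 ± 0.28. In H2087, where its line mean was 6819, it was not called either, at 0.71 ± 0.36 in MLM and -0.41 ± 0.34 in MRM. H2087 had SERPINA3 at 41.0 to 86.6 normalized counts in LCC in MLM against 23.7 to 25.3 in parental cells, and SERPIND1, heparin cofactor II, at 26.2 to 86.5 against 12.4 to 15.1. Both were called, at 1.06 ± 0.29 (limma adjusted p = 0.0467) and 1.63 ± 0.42 (limma adjusted p = 0.038), and both calls were lost without either parental library, that of SERPINA3 also without LCC1, LCC3, LCC4 or LCC6 and that of SERPIND1 without LCC1, LCC5 or LCC6. In H2087 in MRM neither was called, at -0.43 ± 0.97 for SERPINA3 and 0.02 ± 0.82 for SERPIND1. SERPING1, the C1 inhibitor of complement, was not called in any of the 4 comparisons of LCC with parental cells. In HCC1954 it had -2.50 ± 0.88 (limma adjusted p = 0.0612) in MLM and -2.01 ± 0.76 (limma adjusted p = 0.072) in MRM. Every LCC library lay below the parental ones in MRM. SERPING1 was called lower in MRM with 1 mean per derivative, and in both media without LCC1 library 1. The H2087 log2 fold changes were -1.44 ± 0.73 in MLM and 0.33 ± 1.26 in MRM.

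All clade B serpins called in HCC1954 LCC were lower than in parental cells, 2 of 10 members in MLM and 6 of 10 in MRM, where 18.5% and 19.3% of all genes were called lower. Without any 1 parental library in MRM only SERPINB1 and SERPINB13 of those 6 stayed called. In clade B 0 of 7 members were called in H2087 by limma or by edgeR, with an unadjusted limma p under 0.05 in 2 in MLM and 0 in MRM. Most of this clade acts inside cells. SERPINB1, an inhibitor of neutrophil serine proteases, held 1547 and 1583 normalized counts in HCC1954 LCC1 and 1414 and 1386 in LCC2 in MLM, against 2960.5, 2585 and 2239 in parental cells. In mitogen-rich medium there were 2018 and 1031 in LCC1 and 1715 and 1682 in LCC2, against 3679.5, 3778 and 3910. The groups did not overlap, with log2 fold changes of -0.80 ± 0.11 (limma adjusted p = 0.00192) and -1.27 ± 0.21 (limma adjusted p = 0.00336). SERPINB6, an inhibitor of cathepsin G and trypsin-like proteases, held 2328 and 2351 in LCC1 and 1969.7 and 1905 in LCC2 in MLM, against 3583, 3363 and 3258. MRM libraries had 2759.6 and 2396 in LCC1 and 2748 and 2722 in LCC2, against 3248, 3242 and 3371. Again the groups did not overlap, at -0.67 ± 0.10 (limma adjusted p = 0.00273) and -0.31 ± 0.08 (limma adjusted p = 0.0212).

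SERPINB3, SERPINB4 and SERPINB13 are serpins of squamous epithelia that inhibit cysteine cathepsins or chymotrypsin-like proteases, and they lie with SERPINB2, SERPINB5, SERPINB7 and SERPINB8 in 1 cluster on chromosome 18. The SERPINB3 and SERPINB4 promoters are shown because the genes are near copies whose values moved side by side. They are from RefSeq, build GRCh38.p14, each the 250 bases before the first listed start, read 5′ to 3′ on the minus strand at chr18:63661894-63662143 and chr18:63644257-63644506. Capitals mark the 3 positions that differ, and 247 of 250 bases (98.8%) were identical.
SERPINB3: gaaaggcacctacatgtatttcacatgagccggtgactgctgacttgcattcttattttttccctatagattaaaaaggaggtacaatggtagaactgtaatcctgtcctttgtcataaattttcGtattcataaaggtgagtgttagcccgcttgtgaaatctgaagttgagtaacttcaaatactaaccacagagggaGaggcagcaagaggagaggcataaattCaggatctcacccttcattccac
SERPINB4: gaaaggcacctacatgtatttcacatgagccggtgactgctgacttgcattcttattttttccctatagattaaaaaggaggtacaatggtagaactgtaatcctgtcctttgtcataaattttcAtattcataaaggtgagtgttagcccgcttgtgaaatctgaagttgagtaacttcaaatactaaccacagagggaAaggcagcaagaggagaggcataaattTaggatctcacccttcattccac
Reads from near copies can be split between the genes in ways that the counting did not state, so their separate values are uncertain. In HCC1954 in MRM, SERPINB3 held 1571 and 389.9 normalized counts in LCC1 and 860.5 and 877 in LCC2, against 2095, 2189 and 2213 in parental cells. SERPINB4 held 940.1 and 254 in LCC1 and 358 and 343 in LCC2, against 1118, 1236 and 1248. All LCC libraries lay below the parental ones for both, at -1.39 ± 0.41 (limma adjusted p = 0.0302) and -1.53 ± 0.41 (limma adjusted p = 0.0211). SERPINB13, also called headpin, held 195 and 53.9 in LCC1 and 38.4 and 45.3 in LCC2, against 1335, 1322 and 1432, at -4.36 ± 0.52 (limma adjusted p = 0.000856). It stayed called with any single library left out, while SERPINB3 was also lost without either LCC2 library. In MLM none of these 3 was called, at 1.22 ± 1.17 for SERPINB3, 0.59 ± 1.27 for SERPINB4 and -2.55 ± 1.18 for SERPINB13. Parental libraries 1 and 2 of SERPINB3 were at 24.6 and 29.2 there and library 3 at 412. SERPINB7, SERPINB8 and SERPINB9 were not called between LCC and parental cells in either medium.

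Promoters of SERPINB2 and SERPINB13 are shown because both genes were lower in HCC1954 LCC in MRM and each holds a match to the AP-1 site TGANTCA. The windows are the 250 bases before the first listed start in RefSeq, build GRCh38.p14, plus strand, at chr18:63887455-63887704 and chr18:63587093-63587342. Capitals mark matches to the motifs searched on both strands: the AP-1 site TGANTCA, the TATA box TATAAA, the SMAD box CAGACA, the GC box GGGCGG and the heat shock element core GAANNTTC.
SERPINB2: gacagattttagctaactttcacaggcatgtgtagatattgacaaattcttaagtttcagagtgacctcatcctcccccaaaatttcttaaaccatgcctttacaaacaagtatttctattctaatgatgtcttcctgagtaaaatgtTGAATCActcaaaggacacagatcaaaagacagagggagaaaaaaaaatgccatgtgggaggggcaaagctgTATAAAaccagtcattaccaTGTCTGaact
SERPINB13: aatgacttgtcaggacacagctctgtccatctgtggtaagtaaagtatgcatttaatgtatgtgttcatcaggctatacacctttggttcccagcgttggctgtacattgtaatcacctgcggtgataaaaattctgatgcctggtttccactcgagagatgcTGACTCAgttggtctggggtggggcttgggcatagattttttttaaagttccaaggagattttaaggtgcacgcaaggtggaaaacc
The AP-1 letters start 102 bases before the SERPINB2 start and 87 before that of SERPINB13, and SERPINB2 also holds a TATA box at 30 and a SMAD box at 10. Windows were found for 19 of the 23 genes. The others are PLAT, SERPINF1, SERPINF2 and SERPING1. The AP-1 letters were in 5 of 19 (PLAUR, SERPINB2, SERPINB5, SERPINB8 and SERPINB13), where 6.6% of 27305 promoters of the same length hold them. Of these, PLAUR, SERPINB5 and SERPINB8 were not called in HCC1954 LCC in MRM, at -0.69, 0.44 and -0.21. SERPINB1, SERPINB3, SERPINB4 and SERPINB6 were called lower there and their windows hold no AP-1 match. The SMAD box was in 4 of 19 beside 13.6%, the TATA box in 3 beside 11.1% and the GC box in 7 beside 42.3%. A match describes letters and is not evidence of a bound site.

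SERPINH1, the collagen chaperone HSP47 of the endoplasmic reticulum, does not inhibit proteases. It held 8866 and 8552 normalized counts in HCC1954 LCC1 and 7375 and 7609.9 in LCC2 in MLM, against 2840.0, 2924 and 2562 in parental cells. In MRM it held 8845 and 6479.7 in LCC1 and 7578 and 7321 in LCC2, against 2442, 2228 and 2282. The groups did not overlap in either medium, for either derivative. The log2 fold change was 1.54 ± 0.10 (limma adjusted p = 0.000109) in MLM and 1.70 ± 0.11 (limma adjusted p = 9.59e-05) in MRM, between 1.49 and 1.77 with any 1 library left out. The 10 nearest tested genes had medians of 0.23 and 0.63 in these comparisons, with 5 of 10 called higher in MRM. Its promoter is shown because SERPINH1 is a known heat shock gene, with the heat shock element core in capitals, which starts 71 bases before the start. The window is from RefSeq, build GRCh38.p14, plus strand, chr11:75562003-75562252.
SERPINH1: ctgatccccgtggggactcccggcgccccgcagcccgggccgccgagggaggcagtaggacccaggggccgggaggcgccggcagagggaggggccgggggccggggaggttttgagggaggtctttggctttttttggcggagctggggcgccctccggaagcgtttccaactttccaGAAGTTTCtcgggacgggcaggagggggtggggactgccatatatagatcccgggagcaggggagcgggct
That core was in 2 of 19 windows, those of SERPINH1 and SERPINB7, where 5.85% of all promoters hold it. In H2087, SERPINH1 held 8105, 11424 and 13580.1 normalized counts in LCC in MLM, against 8254 and 8573, and 9718, 16089 and 23271 in MRM, against 21418 and 20959.8 in parental cells. The groups overlapped and neither difference was called.

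SERPINB5, known as maspin, has no known inhibition of proteases. It held 502, 814 and 1149 normalized counts in H2087 LCC in MLM, against 567 and 609, and 477, 589 and 1145 in MRM, against 471 and 468. LCC4 held the highest value in both media. In HCC1954 it held 3791 and 4155 in LCC1 and 2566 and 2465 in LCC2 in MLM, against 2784, 2742 and 2754. The MRM values were 4589.5 and 6071 in LCC1 and 3961 and 3978 in LCC2, against 3464, 3239 and 3397, so that every LCC library was above the parental ones. The log2 fold change in MRM was 0.44 ± 0.16 (limma adjusted p = 0.0569). SERPINF1, pigment epithelium-derived factor, was not called between LCC and parental cells in either line.

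**Figure D4:**
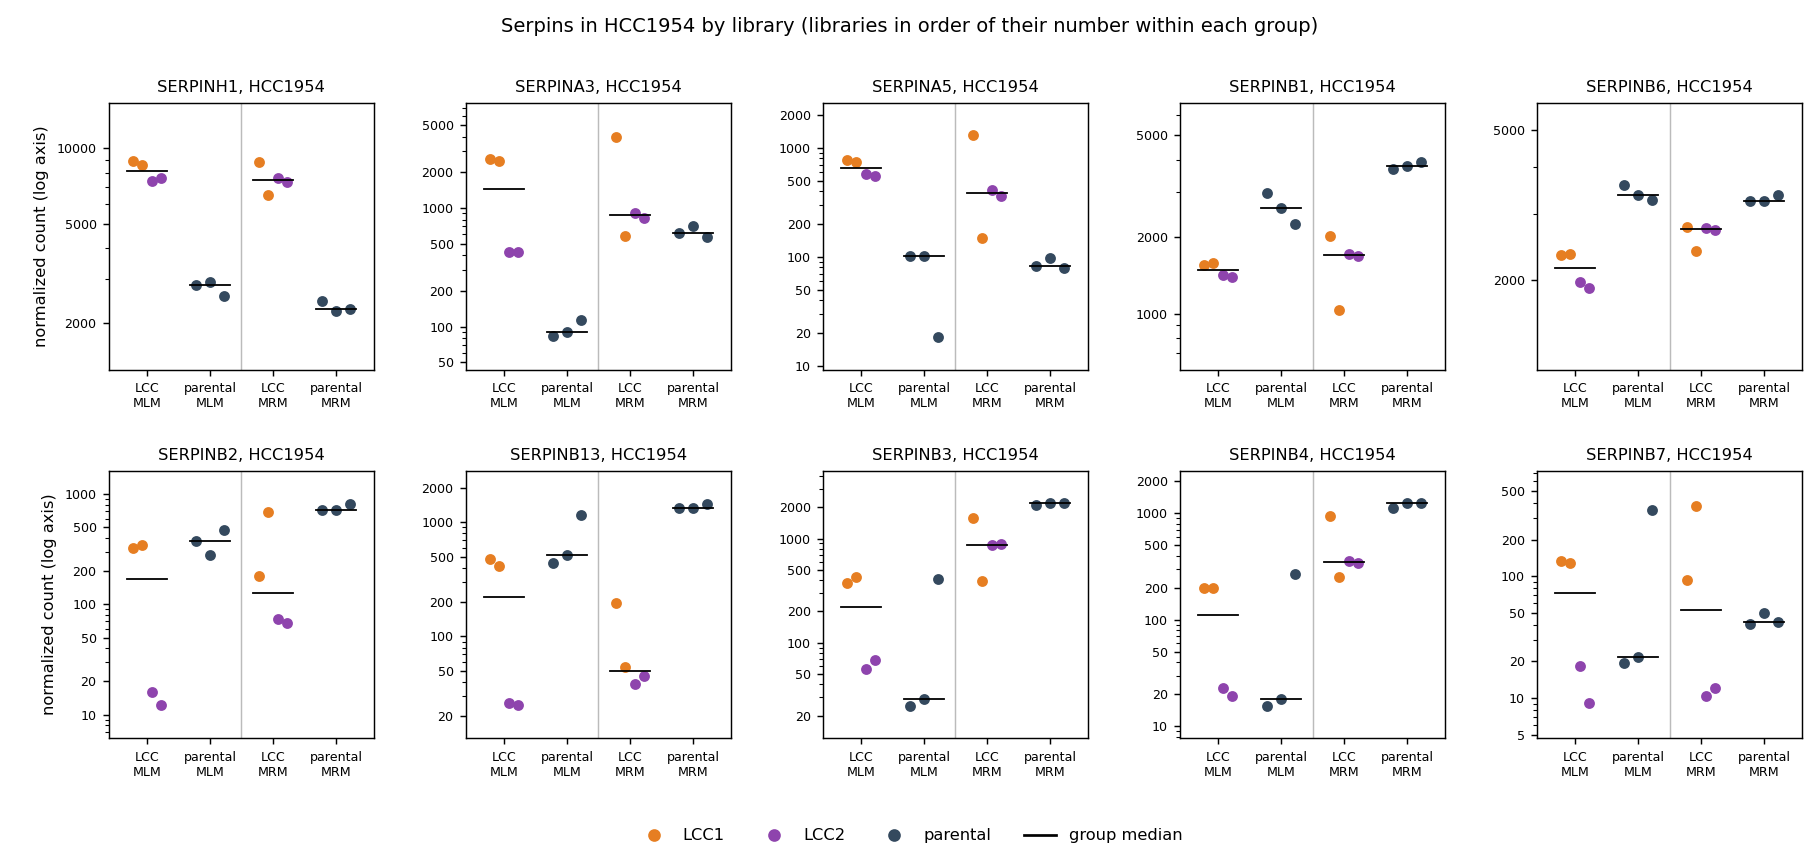
Normalized counts (vertical, log axis) of 10 serpins in every HCC1954 library by cell type and medium, with a line at each group's median, and LCC1, LCC2 and parental libraries in different colours. SERPINH1 lies at 6479.7 and above in all LCC libraries and at 2924 and below in all parental ones. The second LCC1 library in MRM lies more than 2-fold from the first in SERPINA3, SERPINA5, SERPINB2, SERPINB3, SERPINB4, SERPINB7 and SERPINB13.

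Media were compared within each cell type on the same libraries, so these results share samples with those above. In H2087 parental cells 4 members were higher and 12 lower in MLM than in MRM, where 72% of all genes were called, 38% higher and 34% lower. SERPINE2 was the highest of these by fold change, at 1312 and 1284 normalized counts in MLM and 152 and 132 in MRM, a log2 fold change of 3.19 ± 0.09 (limma adjusted p = 2.94e-07). SERPINA3 held 25.3 and 23.7 in MLM against 356 and 210.3 in MRM, at -3.43 ± 0.25 (limma adjusted p = 1.29e-05). PLAU, PLAUR, SERPINA1, SERPINA5, SERPINB1 and SERPINH1 were lower in MLM by 0.85 to 2.80 on the log2 scale. In H2087 LCC 2 members were higher and 5 lower in MLM, where 32.6% of all genes were called, 15.9% higher and 16.7% lower, and 13 were called with derivatives blocked. PLAT, at 16399.9 to 23431 in MLM and 40680.4 to 62046 in MRM, had -1.48 ± 0.12 (limma adjusted p = 5.1e-06), and PLAU -0.66 ± 0.13 (limma adjusted p = 0.00275). SERPINA3, SERPINB3 and SERPINB4 were the other members lower in MLM, at -1.94 ± 0.58, -3.40 ± 0.57 and -4.36 ± 0.71, and SERPINB8 and SERPIND1 were higher, at 0.44 ± 0.15 and 2.07 ± 0.47. In LCC, SERPINB3 averaged 0.73 normalized counts in MLM and 17.4 in MRM, and SERPINB4 3.66 and 81.4. These near copies passed the filter through their higher groups, so their calls between media, also those in parental cells, are not separate support. Neither was called with a line mean of at least 50. The call of SERPINA3 was lost without LCC5 in MRM and that of SERPINB8 without any 1 of 9 of the 12 libraries. SERPINE2 had -0.31 ± 0.63 there.

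HCC1954 parental cells had 1 member higher and 8 lower in MLM, where 44.9% of all genes were called, 24.6% higher and 20.3% lower. SERPINH1 was the member higher in MLM, at 0.26 ± 0.07 (limma adjusted p = 0.0254), a call lost without any 1 of 4 of the 6 libraries. PLAT was lower in MLM, with -1.96 ± 0.25 (limma adjusted p = 0.00125). SERPINB3 held 24.6, 29.2 and 412 in MLM against 2095, 2189 and 2213 in MRM, at -4.99 ± 0.98 (limma adjusted p = 0.00681), and SERPINB4 held 15.5, 18.2 and 269 against 1118, 1236 and 1248, at -4.77 ± 0.99 (limma adjusted p = 0.00838). Parental library 3 in MLM was the high one for both genes. Without it 17 members were called in place of 9, all 9 among them. In HCC1954 LCC 0 of 22 members were called between media, where 12% of all genes were called, 6.37% higher and 5.6% lower. That count of 1844 genes was 602 to 2119 with 1 library left out, and 969 or fewer without any 1 LCC library in MLM or either LCC2 library in MRM. Of the members 6 had an unadjusted limma p under 0.05, and edgeR called 0. With the numbered libraries blocked 4 were called lower in MLM, SERPINB3, SERPINB4, SERPINB5 and SERPINI1, and with the derivative blocked SERPINB6 as well. The LCC effect did not pass the test for a difference between media in any of the 22 members, where 0.156% of all genes were called, 0.0649% higher and 0.0909% lower. There 4 had an unadjusted p under 0.05 and edgeR called 0.

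The derivatives of HCC1954 were compared over both media with medium as a term. LCC2 had 11 members lower and 1 higher than LCC1, where 45.8% of all genes were called, 22.4% higher and 23.4% lower. The members' median log2 fold change was -0.99, beside 0.00416 for all genes. All 3 genes of the activation step were lower in LCC2, PLAT at -1.45 ± 0.18 (limma adjusted p = 0.000632), PLAU at -1.10 ± 0.12 (limma adjusted p = 0.000387) and PLAUR at -1.01 ± 0.24 (limma adjusted p = 0.0108). So were the inhibitors SERPINB2 at -3.39 ± 0.53 (limma adjusted p = 0.00176) and SERPINE2 at -0.97 ± 0.14 (limma adjusted p = 0.00118). SERPINB2 held 16.0 and 12.2 normalized counts in LCC2 in MLM, against 323 and 348 in LCC1. SERPINB7, picked here for its size after its values were seen, held 18.3 and 9.12 in LCC2 in MLM, against 133 and 129 in LCC1, and 10.5 and 12.2 in MRM, against 93.5 and 377. Its log2 fold change was -3.59 ± 0.43 (limma adjusted p = 0.000555). SERPINH1 had -0.12 ± 0.10 and SERPINB1 0.04 ± 0.19, and SERPINF1 was the 1 member called higher, at 0.61 ± 0.18 (limma adjusted p = 0.0242), a call lost without any 1 of 4 of the 8 libraries. With each library left out in turn 9 to 18 members were called, 18 without LCC1 library 2 in MRM. Since 2 derivatives are compared, the spread is that between libraries of a derivative.

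Genes that bind plasminogen or urokinase, or clear their complexes, were counted from a list of 24 symbols. In H2087 LCC 2 of 17 tested were higher in MLM and 0 lower, the clearance receptor LRP1 at 0.91 ± 0.19 and the integrin ITGB5 at 0.71 ± 0.16. In MRM 1 was higher, the plasminogen receptor ANXA2 at 1.46 ± 0.19, and 1 lower, the integrin ITGB3 at -1.68 ± 0.27. In HCC1954 LCC 5 of 21 were higher and 5 lower in MLM, and 6 higher and 5 lower in MRM. ITGB3 averaged 442.5 normalized counts in LCC and 34.9 in parental cells in MLM, at 3.61 ± 0.32, and was not called in MRM. L1CAM and cathepsin B (CTSB) were higher in both media, at 1.37 ± 0.44 and 0.93 ± 0.21 in MLM, and the integrin ITGB1 and the scavenging receptor IGF2R were lower in both, at -1.63 ± 0.12 and -0.93 ± 0.20 in MLM. The keratin KRT8, also on the list, was called lower in both media as well.

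Coagulation genes gave 0 higher and 2 lower of 14 tested in H2087 LCC in MLM, and 1 higher and 3 lower in MRM, with TFPI higher at 0.82 ± 0.11 and TFPI2 lower at -2.06 ± 0.35. In HCC1954 LCC 3 of 13 were higher and 3 lower in each medium. TFPI2, a Kunitz inhibitor of plasmin and other matrix proteases, was higher there, at 3.75 ± 0.66 in MLM and 3.47 ± 0.24 in MRM, and heparanase (HPSE) lower, at -1.50 ± 0.12 and -1.61 ± 0.23. Among other proteases and inhibitors outside the serpin family, 0 of 18 tested were higher and 1 lower in H2087 LCC in MLM, with 0 called in MRM by limma, where 6 had an unadjusted p under 0.05. In HCC1954 LCC 2 of 25 were higher and 6 lower in MLM, and 3 higher and 11 lower in MRM. PI3, the elastase inhibitor elafin, was higher at 3.79 ± 0.85 and 3.83 ± 1.05, and the membrane protease TMPRSS4 lower at -1.89 ± 0.19 and -2.79 ± 0.58. The lists were chosen with earlier results known, and their counts stand beside the shares of all genes given above.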

How the data were processed

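RNA of bulk cultures was analysed in 30 of the 31 RNA samples listed. The authors deposited a table for each line and medium whose values are a signal per gene, read counts divided by library size factors, called normalized counts here. Per the submitters' processing notes, Bowtie2 2.2.4, HTSeq 0.6.1p1 and DESeq2 1.8.1 were among the tools and hg19 and GRCh37 among the builds. The strand setting and the annotation are not given in the sources used here. In every library 100% of the values were whole multiples of 1 read within 0.01 reads, which gave the depths. Recomputed size factors showed that both media of a line shared 1 normalization, with a largest relative difference of 8.9e-10 in H2087 and 4.35e-10 in HCC1954, so media were tested within a line and nothing was tested across lines.

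Genes with a line mean of at least 10 were tested with limma 3.58.1 in R 4.3.3 (trended prior variance, two-sided) on log2 of the value plus 1, in which fold changes of low genes are understated. Each fit held the groups compared. The difference between media of the LCC effect was the interaction term, and medium was a term for LCC2 against LCC1. The script was tested on simulated data. Alternatives were a pseudocount of 0.5 or 8, other filters, equal library totals, edgeR 4.0.16's quasi-likelihood test on the recovered reads, each library left out, 1 mean per derivative and a replicate block. That block uses the derivative and number that the labels give to libraries of both media. LCC libraries of the same name deviated together, with correlations of 0.411 to 0.756 in H2087 and 0.507 to 0.698 in HCC1954, and parental ones did not, at 0.116 or less. In HCC1954 the best other LCC library reached 0.497 to 0.689, above that of the same name for LCC1 library 2. No library pair agreed within sampling noise.

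Values are given in every library (for the 6 H2087 LCC libraries the lowest, median and highest) for PLAT, PLAU, PLAUR, SERPINE2 and SERPINB5, and for other members with a group mean of at least 100 in the comparisons of LCC with parental cells where they were called. Up to 4 genes per direction were named from each pathway list. A gene that fits the name rule is not reported here and is left out of every count of members. The members and lists were chosen with earlier results of these data known.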

Additional observations from a re-analysis of the deposited data

Results flagged for a closer look

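A single library stood far from the rest of its group in 3 of the 33 groups of 4 to 6 libraries examined. Chance gives about 1 in 20 where libraries are independent draws from 1 group. That rate need not hold here, since HCC1954 LCC groups hold 2 derivatives and the same libraries recur over genes. PLAUR was at 4359 normalized counts in LCC1 library 2 of HCC1954 in MRM, above the other 3 LCC libraries at 1555 to 1827. SERPINB6 was at 2396 in the same library, below the others at 2722 to 2760. SERPINB5 was at 1145 in the LCC4 library of H2087 in MRM, above the other 5, and LCC4 was also the highest in MLM.

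The LCC effect on PLAT in H2087 differed between media, at -1.07 (MLM minus MRM, limma adjusted p = 0.00575). PLAT went opposite ways in the lines, with every library of each LCC group on one side of its parental group. Its log2 fold change in MLM was 0.74 in H2087 LCC and -3.55 in HCC1954 LCC, and in MRM it was 1.81 in H2087 LCC and -5.89 in HCC1954 LCC. SERPINB6 did so in MLM, at 0.34 in H2087 LCC, which was not called, and -0.67 in HCC1954 LCC. These differences between lines were not tested.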

How the results depend on the processing

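No called member turned round in any setting. Of the 68 member calls repeated under other settings, 439 repeats were still called and 20 were not, and of 480 repeats without 1 library, 398 were. With a line mean of at least 50, 1 member was called between LCC and parental cells of H2087 in MLM and 4 between the media of H2087 LCC. With the replicate block, 13 were called between the media of H2087 LCC and 7 for the H2087 LCC effect, and 4 (5 with the derivative as the block) and 1 for the same comparisons in HCC1954. The 1 was PLAT, at 2.34 ± 0.26 (limma adjusted p = 0.0217). In both lines the blocked fit of the LCC effect also blocks on parental numbers, which did not pair. The block left both counts between parental media as they were and was not run on the other comparisons. Equal library totals gave 1 call between the media of HCC1954 LCC. In alternatives chosen after seeing the data, the HCC1954 LCC effect had 1 call (SERPINA1) without parental library 3 in MLM and LCC1 library 2 in MRM, and the H2087 LCC effect had 2 without LCC5 and LCC6 of MRM, and the media of H2087 LCC had 4 without those derivatives.

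With each library left out in turn, H2087 gave 0 to 5 calls between LCC and parental cells in MLM (0 without either parental library, 1 without LCC1, 5 without LCC2, 4 without LCC4), 2 to 3 in MRM, 1 to 2 for the LCC effect, 12 to 18 between parental media and 5 to 8 between LCC media. HCC1954 gave 6 to 8 in MLM, 6 to 13 in MRM, 7 to 17 between parental media and 9 to 18 for LCC2 against LCC1, and 0 for the LCC media and the LCC effect. Without parental library 3, SERPINE2 and SERPING1 were also called in MLM.

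Over all genes, the replicate block gave 3426 calls for the H2087 LCC effect in place of 1344, and 4408 (5765 by derivative) between HCC1954 LCC media in place of 1844. One mean per derivative gave 2573 for HCC1954 LCC in MLM in place of 5535. Without LCC5 and LCC6, 1055 genes were called for H2087 LCC in MRM in place of 1807 and 1718 between its media in place of 4087. The HCC1954 LCC effect had 24 calls, 10 at a pseudocount of 0.5, 13 with no filter, 12 by edgeR, 116 with the block and 187 without both libraries apart. By edgeR 1799 and 1679 genes were called for H2087 LCC in MLM and MRM, and 5537 and 5975 for HCC1954 LCC. With 1 library left out the counts over all genes were 426 to 1622 for the H2087 LCC effect (fewest without a parental library), 3626 to 5166 and 3663 to 7469 for HCC1954 LCC in MLM and MRM (fewest without parental library 1), 4333 to 10272 between HCC1954 parental media and 0 to 50 for the HCC1954 LCC effect. The causes were not tested. Parental groups of 2 and 3 libraries and group means under 100 normalized counts limit what could be called.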

Other observations

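The plasminogen and clotting genes outside the serpin family also differed between the media of H2087 parental cells. Of 17 tested genes that bind plasminogen or urokinase or clear their complexes, 4 were higher and 12 lower in MLM. ANXA2 and S100A10, whose products form a plasminogen receptor, were both higher in MLM, with ANXA2 at 71288 normalized counts in MLM and 25413 in MRM (a log2 fold change of 1.49 ± 0.05) and S100A10 at 18845 in MLM and 7932 in MRM (1.25 ± 0.06). ITGB3 averaged 376 in MLM and 2601 in MRM, at -2.79 ± 0.06. Of 14 coagulation genes 4 were higher and 7 lower. Tissue factor (F3) was higher at 1.35 ± 0.05 and the anticoagulant receptor thrombomodulin (THBD) lower at -2.20 ± 0.05. All these calls are by limma over all genes of the line, where 72% were called, and each group held 2 libraries.

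In HCC1954, LCC2 against LCC1 gave 5 higher and 11 lower of 21 genes of the first list and 2 higher and 5 lower of 13 coagulation genes, where 22.4% of all genes were called higher and 23.4% lower. Tissue factor was lower in LCC2 at -1.60 ± 0.23, and so was its inhibitor TFPI at -1.66 ± 0.13. PI3, elafin, was higher in LCC2 at 3.16 ± 0.27.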
